A study of Mus musculus with 8 samples.

Results

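The protein subunits of RNase P and RNase MRP were examined in the cerebral cortex and striatum of 2 mouse strains. Members were all array probes whose gene name was Rpp14, Rpp21, Rpp25, Rpp30, Rpp38, Rpp40, Pop1, Pop4, Pop5 or Pop7, which gave 16 probes for 10 genes out of 56605 probes carrying 37074 names. Of these genes, 6 had 2 probes each, and Pop4, Rpp25, Rpp30 and Rpp38 had 1 each. The tissue came from 4 male BTBRTF/ArtRbrc mice (BTBR/R), a subline of the BTBR strain, which is used as a model of autism, and from 4 male C57BL/6J mice (B6), the reference strain. The study states that BTBR/R mice carry the spontaneous mutations T (brachyury), Itpr3tf (tufted) and at (black and tan). The labels name no transgene or treatment, each mouse had an array of its own, and the age was 4 months except for BTBR/R replicate 1, which was 6 months old. Cortex and striatum were measured together as one tissue, so neither region has a value of its own.

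RNase P is the ribonucleoprotein enzyme that removes the 5′ leader from precursor transfer RNAs. RNase MRP has a related catalytic RNA, takes part in the maturation of ribosomal RNA, and shares most of its proteins with RNase P. In the human RNase P structure the proteins form a wrist (Pop1, Rpp20 and Rpp25), a palm (Rpp21, Rpp29 and Rpp38) and a finger (Pop5, Rpp14, Rpp30 and Rpp40) around the RNA. Mouse Pop7 encodes Rpp20, and mouse Pop4 encodes Rpp29. Both enzymes are used by every nucleated cell type, and the RNA behind them is encoded by Rpph1 and Rmrp.

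The Rpp25 and Pop4 probes are shown because they were called lower and each is the gene's sole probe on the array. The Rpp40 probes are shown because both were lower in BTBR/R. Probes of the other subunits are not shown. All are 60 bases long and are given 5′ to 3′, Rpp25 and Pop4 by their first 30 bases. Capitals in the Rpp25 probe mark bases 4 to 21, the reverse complement of the reverse primer with which the study made its in situ hybridization probe for Rpp25, so that both methods read this stretch of the transcript. No member probe shared a run of 20 bases with any other probe of the array.
Rpp25 probe: taaCTGAGAGCGGGAGCTACGgagctgatt
Rpp25 in situ reverse primer: CGTAGCTCCCGCTCTCAG
Pop4 probe: gctaggggtaaatatttgtactgttaggtg
Rpp40 probe at the lower position: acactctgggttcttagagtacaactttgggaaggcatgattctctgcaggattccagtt
Rpp40 probe at the higher position: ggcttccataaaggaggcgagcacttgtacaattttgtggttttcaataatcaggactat

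In the mm9 build, which the array annotation uses, the Rpp25 probe lay at chr9:57353026-57353085 on the plus strand and the Pop4 probe at chr7:39047984-39048043 on the minus strand. The Rpp40 probes lay at chr13:35985465-35985524 and chr13:35988641-35988700 on the minus strand. The annotation assigns these probes to transcripts of the named genes, but it does not say which exon or untranslated region each one lies in. The BTBR/R sequence under the probes was not analysed here, so for Pop4 and Rpp25, with 1 probe each, a fold is that of the probe's signal, and these arrays alone cannot tell a lower transcript level from weaker binding of the BTBR/R transcript to the probe. The study also measured Rpp25 by qRT-PCR and by in situ hybridization. It reported Rpp25 as lower in BTBR/R by both methods, the second in cortex and amygdala. It also listed Pop4 as lower in published datasets of another BTBR subline, BTBR/J. None of those data were analysed here.

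Levels are given as the scaled signal, which is the log2 of a probe's processed signal after the 75th percentile of its array has been subtracted, and a change is the mean of BTBR/R minus the mean of B6 on that log2 scale. Levels of different probes are not on a shared scale and were not set against each other. A call required an adjusted p below 0.05 in limma together with a 2-fold or larger change. A probe was counted as detected when its spot was well above background on all 8 arrays, which held for 15 of the 16 member probes and for at least 1 probe of every member. The arrays shared 1 slide and 1 scan, and because B6 filled its column 1 and BTBR/R its column 2, the slide column cannot be told apart from the strain. In both strains, replicates 1 to 4 lay in slide rows 1 to 4. The share of probes above background was 64.5% to 66.8% for the B6 mice and 53.5% to 57.2% for the BTBR/R mice, and no probe was saturated.

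Pop4 and Rpp25 fell by more than 2-fold in BTBR/R, and no other subunit did. These 2 of the 15 detected member probes were called lower and 0 were called higher, where 1.16% of all 28547 detected probes were called lower and 1.04% higher (2.27% lower and 20.2% higher over all 56605 probes, dim ones included, 22.4% in either direction). The study had already reported both genes as lower on these arrays, and the members were chosen with earlier results known. The shares are thus background and not a test of the set. Without a fold threshold, 4 detected member probes were lower, 3 were higher and 8 did not pass, against 13.9% of detected probes lower and 13% higher (26.9% in either direction). Besides Pop4 and Rpp25, the probes that passed were both probes of Rpp40 (lower), both probes of Pop5 (higher) and 1 probe of Pop1 (higher). The median change over the 15 member probes was -0.01, beside 0.00 over all detected probes, and 13 of the 15 changed by less than 0.5.

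**Figure D1:**
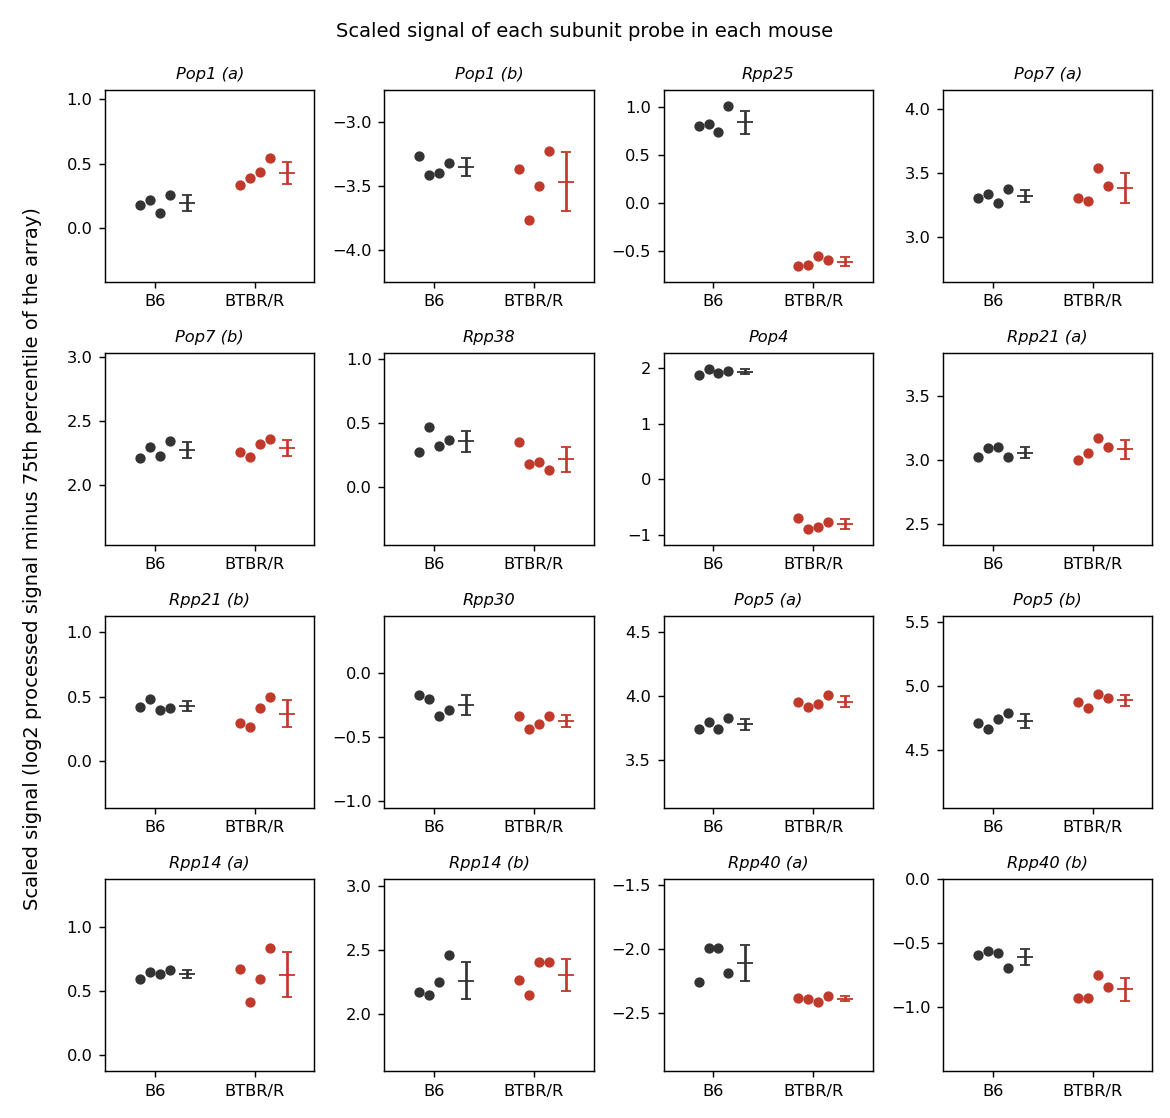
Scaled signal (y axis, log2, scaled to each array's 75th percentile, own range in each panel) of the 16 subunit probes in 4 B6 mice (black) and 4 BTBR/R mice (red). Points are mice, in the order of their replicate numbers, and the bar beside them is the mean ± SD. Where a gene has 2 probes, (a) has the lower genome position. The strains lie far apart for Rpp25 (0.84 against -0.61) and Pop4 (1.94 against -0.80).

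Of the wrist proteins, Rpp25 was lower in BTBR/R and its binding partner was not called. Rpp25 is an RNA-binding protein of the Alba type. Its scaled signal was 0.80, 0.82, 0.74 and 1.01 in B6 replicates 1 to 4 and -0.65, -0.64, -0.54 and -0.59 in BTBR/R replicates 1 to 4. Every BTBR/R mouse lay below every B6 mouse, with a gap of 1.28 between the strains. The mean was 0.84 ± 0.12 (SD, n = 4) in B6 and -0.61 ± 0.05 (SD, n = 4) in BTBR/R, a change of -1.45 (SE 0.07, limma adjusted p = 1.62e-05). The Rpp25 signal was thus 2.73-fold lower, with a 95% confidence interval of 2.44 to 3.06-fold. Among all detected probes, 0.431% fell by more. Before scaling, the Rpp25 spot had a mean raw intensity of 1056 to 1307 in B6 and 441 to 493 in BTBR/R, over a local background of 26 to 29.

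Pop7, which forms a heterodimer with Rpp25 in both enzymes, was measured by 2 probes. The probe at chr5:137942827-137942886 ranged from 2.21 to 2.35 in B6 and from 2.22 to 2.36 in BTBR/R, with a change of 0.02 and a 95% confidence interval of -0.11 to 0.15 (limma adjusted p = 0.824). The probe at chr5:137942667-137942726 ranged from 3.27 to 3.38 in B6 and from 3.29 to 3.54 in BTBR/R, with a change of 0.06 and an interval of -0.10 to 0.22 (limma adjusted p = 0.524). The strains overlapped at both probes, and the intervals leave room for a fall of 0.11 at most, which is far smaller than the fall of Rpp25. A test of Rpp25 against Pop7 within the mice was not made.

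Rpp25l, the paralogue of Rpp25, did not pass the test. Its scaled signal was 2.80, 2.74, 2.73 and 2.89 in B6 and 2.90, 2.92, 2.96 and 2.998 in BTBR/R. The BTBR/R values all lay above the B6 values by a narrow margin. The change was 0.16, with an interval of 0.03 to 0.28 (limma adjusted p = 0.0553).

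Pop1, the largest protein of both enzymes, gave a probe that rose and a probe that did not pass. The probe at chr15:34460272-34460331 read 0.18, 0.22, 0.11 and 0.25 in B6 and 0.34, 0.39, 0.44 and 0.54 in BTBR/R. The strains did not overlap, and the change was 0.24 (SE 0.06, limma adjusted p = 0.0188), which corresponds to 17.7% more signal. This Pop1 probe passed in 17 of 20 other settings. The probe at chr15:34461259-34461318, which is annotated to a cDNA clone and not to a RefSeq transcript, was dim and was detected on 6 of the 8 arrays. It ranged from -3.42 to -3.27 in B6 and from -3.77 to -3.23 in BTBR/R, with a change of -0.12 and an interval of -0.38 to 0.15 (limma adjusted p = 0.463).

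Of the palm proteins, Pop4 showed the largest change of any subunit. Pop4 is the Rpp29 protein, an RNA-binding subunit with an Sm-like fold. Its scaled signal was 1.88, 1.99, 1.92 and 1.96 in B6 replicates 1 to 4 and -0.70, -0.89, -0.85 and -0.77 in BTBR/R replicates 1 to 4. The strains were separated by a gap of 2.58, many times the spread within either of them. The mean was 1.94 ± 0.05 (SD, n = 4) in B6 and -0.80 ± 0.09 (SD, n = 4) in BTBR/R, a change of -2.74 (SE 0.06, limma adjusted p = 3.88e-07). The Pop4 signal was thus 6.68-fold lower, with a 95% confidence interval of 6.08 to 7.34-fold. Only 22 of the 28547 detected probes (0.0771%) fell by more. The raw intensity of the Pop4 spot was 2044 to 2184 in B6 and 327 to 384 in BTBR/R, so that the lower strain was still well above its local background of 27 to 33.

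Rpp21 and Rpp38, the other palm proteins, did not pass the test. Rpp38 (chr2:3246440-3246499), a protein that binds a kink-turn of the RNA, read 0.27, 0.47, 0.32 and 0.37 in B6 and 0.35, 0.18, 0.20 and 0.13 in BTBR/R. The strains overlapped through BTBR/R replicate 1, and the change was -0.14 with an interval of -0.30 to 0.02 (limma adjusted p = 0.143). The Rpp21 probe at chr17:36394568-36394627 changed by -0.06 (interval -0.21 to 0.09, limma adjusted p = 0.497), and the one at chr17:36392618-36392677 changed by 0.03 (interval -0.10 to 0.15, limma adjusted p = 0.736). Both probes of Rpp21 overlapped between the strains.

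Of the finger proteins, Rpp40 was slightly lower and Pop5 slightly higher in BTBR/R, each at both of its probes. The Rpp40 probe at the lower position read -2.26, -1.99, -1.99 and -2.19 in B6 and -2.38, -2.39, -2.41 and -2.37 in BTBR/R, a change of -0.28 (SE 0.07, limma adjusted p = 0.0191). The Rpp40 probe at the higher position read -0.59, -0.56, -0.58 and -0.70 in B6 and -0.93, -0.93, -0.75 and -0.84 in BTBR/R, a change of -0.26 (SE 0.06, limma adjusted p = 0.0127). At both probes each BTBR/R mouse lay below each B6 mouse, and the changes correspond to 17.7% and 16.2% less signal. Neither Rpp40 probe was called, and their pass at any fold was lost in some settings: both probes missed the threshold with a replicate block (limma adjusted p = 0.0632 and 0.0527) and with spike-in scaling (limma adjusted p = 0.190 and 0.154), and the probe at the lower position missed it with normexp background correction (limma adjusted p = 0.0637). Strains that do not overlap were seen at 16.4% of detected probes for lower values in BTBR/R and at 16.3% for higher values, 32.6% in all.

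Pop5, a conserved core protein of the finger, read 3.74, 3.80, 3.74 and 3.83 in B6 and 3.95, 3.91, 3.94 and 4.01 in BTBR/R at chr5:115690736-115690795, a change of 0.18 (SE 0.05, limma adjusted p = 0.0193). At chr5:115690916-115690975 it read 4.71, 4.66, 4.74 and 4.79 in B6 and 4.88, 4.83, 4.93 and 4.91 in BTBR/R, a change of 0.16 (SE 0.05, limma adjusted p = 0.0347). The strains did not overlap at either probe, and the changes correspond to 12.9% and 11.7% more signal. The Pop5 probes passed in 16 and 11 of 20 other settings, and both missed the threshold with a replicate block (limma adjusted p = 0.0684 and 0.0797). Pop5 and Pop7 both lie on chromosome 5 but are more than 1 Mb apart.

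Rpp30, which binds Pop5 in the core of the finger, and Rpp14 did not pass the test. The Rpp30 probe, whose mapped span (chr19:36175319-36176322) is longer than its 60 bases, read -0.17, -0.20, -0.34 and -0.29 in B6 and -0.34, -0.44, -0.40 and -0.34 in BTBR/R. The strains overlapped by less than 0.01, and the change was -0.13 with an interval of -0.25 to 0.003 (limma adjusted p = 0.111). The Rpp14 probes changed by 0.05 at chr14:8924251-8924310 (interval -0.17 to 0.27, limma adjusted p = 0.722) and by -0.01 at chr14:8923661-8923720 (interval -0.21 to 0.20, limma adjusted p = 0.966).

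**Figure D2:**
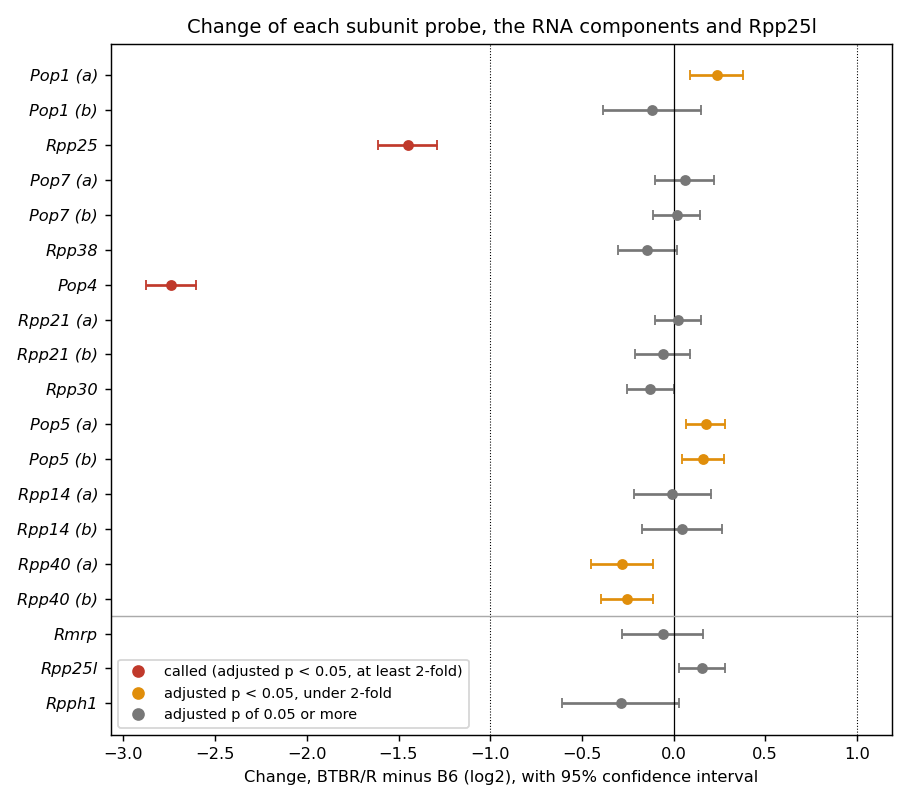
Change in scaled signal (x axis, log2, BTBR/R minus B6) of each subunit probe with its 95% confidence interval from limma, 4 mice per strain, with the RNA components and Rpp25l under the line. Dotted lines mark a 2-fold change. Pop4 (-2.74) and Rpp25 (-1.45) lie beyond the 2-fold line, and the intervals of all other probes lie within -0.61 and 0.38.

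Over the 13 detected probes of the other 8 subunits, changes ran from -0.28 to 0.24 with standard errors of 0.05 to 0.09. Their 95% confidence intervals all lay between -0.45 and 0.38, so that the widest reached 1.37-fold. A 2-fold change of these probes is outside every interval, while changes of the size seen for Rpp40 and Pop5 are inside several of them. Settings mattered for the small changes: the count of 7 probes at any fold dropped to 4 when each array was scaled by its median, where the probes of Pop5 and Pop1 no longer passed, and to 4 without B6 replicate 3, where the same probes of Pop5 and Pop1 were lost. It dropped to 4 with normexp background correction and to 3 with a replicate block.

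The probes for the RNA components of both enzymes did not pass the test. How fully the labelling captured these RNAs was not checked here, so the values are those of the probes' signals. Rpph1, the RNA of RNase P, read 2.13, 1.82, 1.69 and 1.68 in B6 and 1.58, 1.81, 1.43 and 1.36 in BTBR/R. Rmrp, the RNA of RNase MRP, read 1.96, 1.85, 1.81 and 1.78 in B6 and 1.84, 2.02, 1.70 and 1.61 in BTBR/R. The strains overlapped for both RNAs. The change was -0.29 for Rpph1 (interval -0.61 to 0.03, limma adjusted p = 0.136) and -0.06 for Rmrp (interval -0.28 to 0.16, limma adjusted p = 0.656), and Rpph1 was the least precise measurement of the set, with a standard error of 0.14.

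Genes that act beside RNase P and MRP were then described through 3 lists, covering tRNA end processing with the mitochondrial RNase P (8 genes), tRNA splicing (11 genes) and rRNA maturation (31 genes). Of their 86 detected probes, 3 were called lower and 1 higher, and at any fold 10 were lower, 9 were higher and 67 did not pass. The median change was -0.07 for tRNA ends, 0.01 for tRNA splicing and -0.01 for rRNA maturation. Of all detected probes, 2.2% were called in either direction, and at any fold 13.9% were lower and 13% higher (26.9% in all).

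The detected probes that were called belonged to Exosc9, Imp4, Zbtb8os and Tsen34. Some of the calls in these lists were lost with normexp background correction. Exosc9, a core subunit of the RNA exosome, fell by 1.57 at one probe (limma adjusted p = 5.37e-06) and by 0.61 at another (limma adjusted p = 0.000119), and its remaining probe was detected on no array. Imp4, a protein of the small-subunit processome, fell by 1.13 at one probe (limma adjusted p = 2.64e-05), rose by 0.50 at another (limma adjusted p = 0.00112) and changed by 0.02 at the last. The probes of Imp4 thus disagreed.

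In tRNA splicing, Zbtb8os (archease, which activates the tRNA ligase) fell by 1.72 at one probe (limma adjusted p = 2.52e-06), while its other probes changed by 0.26 and -0.11. Tsen34, a catalytic subunit of the tRNA splicing endonuclease, rose by 1.10 at one probe (limma adjusted p = 2.76e-05), while its other probes changed by -0.14 and -0.09. Probes of these genes disagreed as well, a comparison that cannot be made for Pop4 and Rpp25 with their single probes. Tsen15, another subunit of the endonuclease, had a called probe that was detected on all 4 B6 arrays and no BTBR/R array, where the signal was at least 1.19-fold lower, and a second probe with a change of -0.05. A Wdr12 probe that was called higher was detected on no array.

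Genes of these lists that were not called but had low adjusted p included Thg1l, 2700060E02Rik and Exosc10. Thg1l, which adds a guanosine to the 5′ end of histidine tRNA, rose by 0.86 (limma adjusted p = 9.08e-05). 2700060E02Rik, now named Rtraf and a partner of the tRNA ligase, fell by 0.18 (limma adjusted p = 0.00972), and Exosc10, the nuclear exosome nuclease, rose by 0.22 at 1 of its probes (limma adjusted p = 0.0155).

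**Figure D3:**
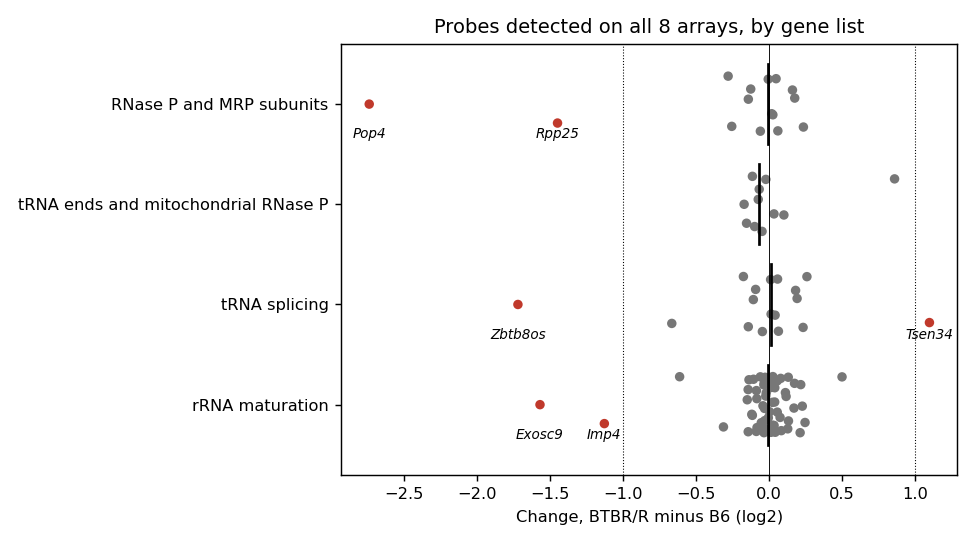
Change in scaled signal (x axis, log2, BTBR/R minus B6) of the probes detected on all 8 arrays, for the subunits and the 3 lists. Each point is a probe, red where called, the black bar is the median of the list, dotted lines mark a 2-fold change, and points are spread vertically for visibility. The called probes are those of Pop4, Rpp25, Zbtb8os, Tsen34, Exosc9 and Imp4, and every list has its median between -0.07 and 0.01.

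Genes near the called subunits were described by their array positions. Within 1 Mb of the Rpp25 probe, 45 detected probes of other named genes had a median change of 0.04, of which 1 was called, beside 2.2% of all detected probes. This was Stra6, a retinol transporter, 648 kb away, which read -0.52, -0.55, -0.09 and -0.75 in B6 and -1.57, -2.11, -1.67 and -1.77 in BTBR/R. Its change was -1.30 (SE 0.17, limma adjusted p = 0.000595), and every BTBR/R mouse was below every B6 mouse. With normexp background correction Stra6 was not called. The nearest genes on the array moved little: the probes of Scamp5, a synaptic vesicle membrane protein on the side of lower positions, changed by 0.02 and 0.09, and BC021782, 22.4 kb away on the other side, changed by -0.004.

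A Cspg4 probe 609 kb from that of Rpp25, named after its values were seen, was called lower but was above background only in the B6 mice, all 4 of them, which puts it at least 2.51-fold lower (limma adjusted p = 0.00987). A further Cspg4 probe, detected on all 8 arrays, changed by -0.14 (limma adjusted p = 0.159), and the last was detected on none.

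Within 1 Mb of the Pop4 probe, 9 probes of named genes were detected and 0 were called by limma, while 2 were lower at an adjusted p below 0.05, beside 2.2% of all detected probes called and 13.9% lower at any fold. Their median change was -0.20, and all 9 lay on the side of lower positions. The nearest gene there, Plekhf1, 42.0 kb away, read -2.65, -3.01, -2.42 and -2.67 in B6 and -1.51, -2.33, -2.59 and -1.88 in BTBR/R. The strains overlapped, with a change of 0.61 (limma adjusted p = 0.0903). The nearest gene on the other side, AV274098, was detected on 1 of 8 arrays.

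Of the 9 detected probes near Pop4, those that passed at any fold, named after their values were seen, belonged to Uri1 and 1600014C10Rik. Uri1, a prefoldin-like protein, changed by -0.24 (limma adjusted p = 0.0143) at one probe and by -0.27 (limma adjusted p = 0.209) at the other. 1600014C10Rik changed by -0.36 (limma adjusted p = 0.00558) at a probe 66.5 kb from that of Pop4. Another of its probes, 68.1 kb from that of Pop4, was called lower (limma adjusted p = 2.67e-05) but was well above background in the B6 mice alone, all 4 of them, which puts it at least 1.84-fold lower. A Gm38635 probe 486 kb away was likewise above background in the B6 mice alone and passed without being called (limma adjusted p = 0.00193), at least 1.38-fold lower.

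**Figure D4:**
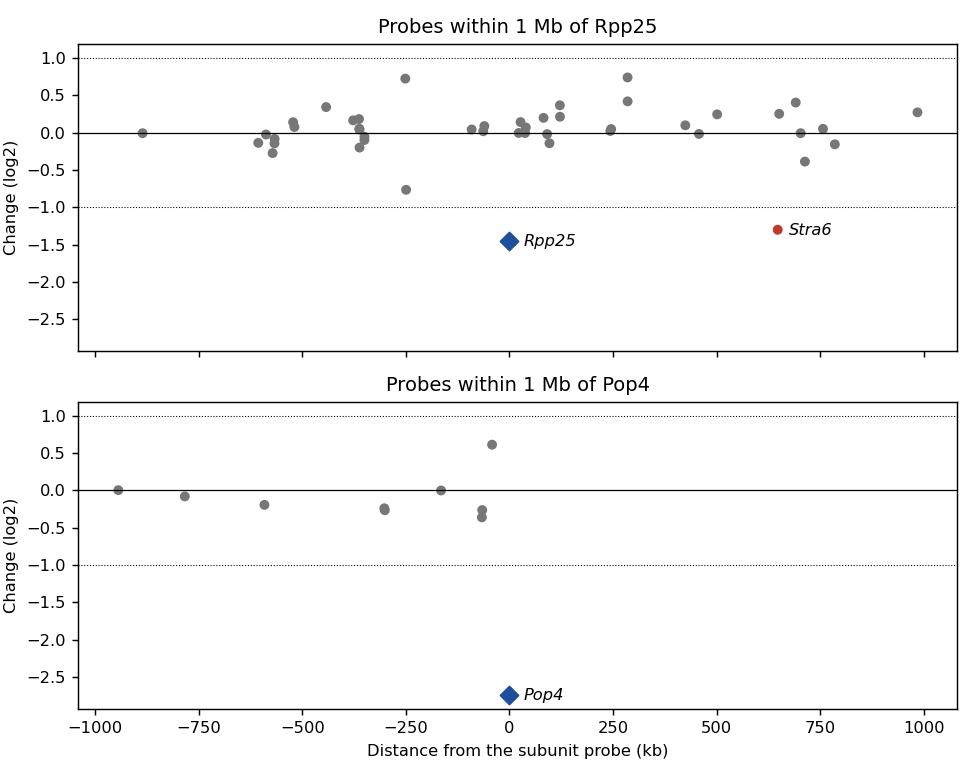
Change in scaled signal (y axis, log2, BTBR/R minus B6) against the distance from the subunit probe (x axis, kb) for the detected probes within 1 Mb of Rpp25 (45 probes) and of Pop4 (9 probes). The diamond is the subunit, the red point is the called neighbour Stra6 (-1.30), and dotted lines mark a 2-fold change.

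For the other 8 subunits, detected neighbours within 1 Mb numbered 14 to 79 probes, with medians between -0.09 near Rpp40 and 0.13 near Rpp30. Near Rpp40, 6 of 14 detected neighbouring probes were lower and 3 were higher at an adjusted p below 0.05, and 0 were called, beside 13.9% of all detected probes lower and 13% higher. Near Pop5, 4 of 64 were lower and 6 were higher at any fold, and 0 were called. Near Pop1, 2 of 24 were lower and 1 was higher, and 1 was called, a probe of Cpq (-1.12, limma adjusted p = 2.76e-05). Near Pop7, of 79 detected probes, 2 of Col26a1 were called lower (-1.63 and -1.55) and 1 of Zkscan1 higher (1.88). Near Rpp21, of 74, 1 probe of H2-T22 was called lower (-1.17) and 1 probe each of H2-Bl (2.55), Psors1c2 (2.16) and A930015D03Rik (2.06) higher. H2-T22 and H2-Bl belong to the class I MHC family, whose members are similar in sequence, so which of them a probe reads is uncertain. No detected neighbour of Rpp14, Rpp30 or Rpp38 was called, and these called neighbours were named after their values were seen.

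The labelled tissue was checked by marker genes, and in bulk tissue fewer cells of a type and less RNA per cell cannot be told apart. All 6 markers of cortical excitatory neurons, all 6 of striatal projection neurons and all 6 of interneurons were detected on every array, and their summed levels overlapped between the strains (4.58 to 4.79 in B6 and 4.66 to 4.85 in BTBR/R for cortical neurons, 6.46 to 6.58 and 6.38 to 6.61 for striatal neurons, 7.15 to 7.18 and 7.17 to 7.22 for interneurons). Summed levels were lower in BTBR/R without overlap for red blood cells (6.34 to 8.06 in B6, 5.78 to 6.09 in BTBR/R, with Alas2, Hba-a1 and Hbb-bt, 3 of 4 markers, called lower), astrocytes (5.39 to 5.58 and 5.20 to 5.33) and endothelial cells (3.83 to 3.94 and 3.44 to 3.73). All 5 oligodendrocyte markers had negative changes (-0.80 to -0.20, median -0.28, which was also the astrocyte median), with summed levels of 7.31 to 7.65 in B6 and 7.18 to 7.32 in BTBR/R that overlapped slightly. The summed microglia markers also overlapped slightly (5.496 to 5.54 in B6 and 5.38 to 5.497 in BTBR/R). Choroid plexus markers varied most within a strain, with overlapping sums of 1.29 to 5.34 in B6 and 2.58 to 4.65 in BTBR/R. The part of these cell types in the lower Pop4, Rpp25 and Rpp40 signals was not tested.

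Across 20 other settings of the processing, Pop4 and Rpp25 were called lower in all 20. The change of Pop4 ran from -2.77 to -2.54 and that of Rpp25 from -1.49 to -1.29. Without BTBR/R replicate 1, the older mouse, the changes were -2.77 and -1.44. Scaling by 7 spike-in probes moved the median of all detected probes to 0.12, and on that scale Pop4 changed by -2.63, Rpp25 by -1.34, and the Rpp40 probes by -0.17 (limma adjusted p = 0.190) and -0.14 (limma adjusted p = 0.154). The Pop5 probes changed by 0.29 and 0.27 on that scale, and the detected Pop1 probe by 0.35. This scaling shifts the change of every probe by the same amount. Relative to that median the Rpp40 probes were therefore at -0.28 and -0.26 by construction, which is not a separate result.

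**Figure D5:**
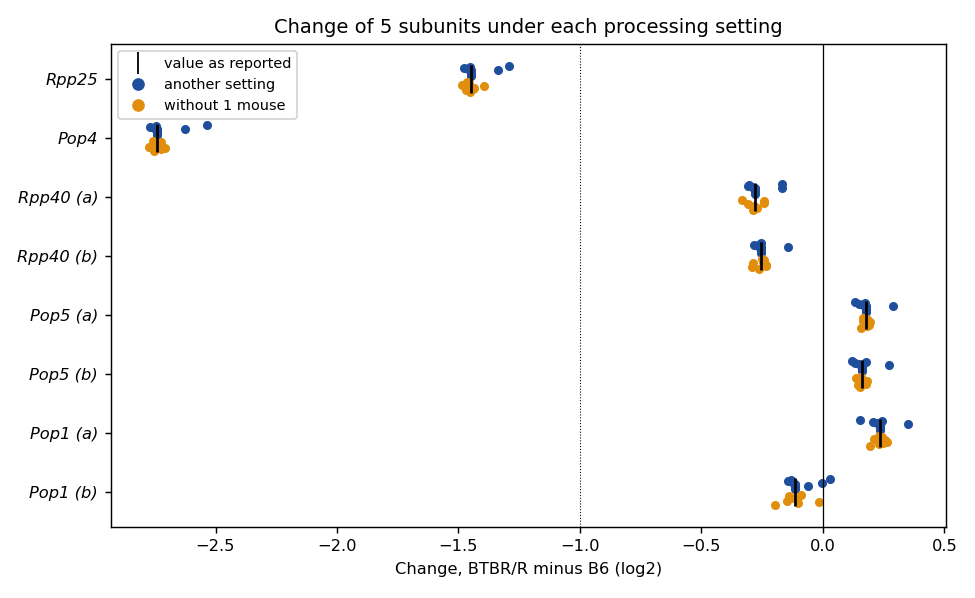
Change in scaled signal (x axis, log2, BTBR/R minus B6) of 5 subunits under each setting. The black mark is the value as reported, blue points are other ways of processing the same 8 arrays, and orange points leave out 1 mouse. The dotted line marks a 2-fold fall, which all settings of Rpp25 and Pop4 exceed, while Rpp40, Pop5 and Pop1 stay within 0.35 of 0.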

How the data were processed

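The members and gene lists were chosen with earlier results of these data known. Total RNA was labelled with Cy3 and hybridized to Agilent 1-colour arrays. The authors deposited spot intensities from Agilent Feature Extraction 10.7.3.1, per the submitters' processing notes: mean signals, local backgrounds and processed signals, from which the local background and spatial trends have been removed. The authors also deposited log2 values, which differed from the log2 processed signals by 1 constant for each array (at least 99.97% of values within 0.01). The file does not state what set the constant, but the 75th percentile of these values was -0.00027 to -1.3e-05 over the arrays. They thus match the scaling used here, and the setting with the authors' log2 values nearly repeats the reported one.

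Here, control spots and outlier flags were left out (59305 of 62976 spots were not controls), spots of a probe were averaged, and log2 signals were scaled by the 75th percentile of each array. The strains were then tested with lmFit and eBayes of limma 3.58.1 in R 4.3.3, and p-values were adjusted by Benjamini-Hochberg over 56605 probes. In simulated data for this comparison over 56583 probes, 172 of 200 probes changed by 2 on the log2 scale were called, with 5 false calls. Python 3.11.15, numpy 2.4.6, pandas 2.3.3 and matplotlib 3.10.9 were used. Summed marker levels are the log2 of the summed linear scaled signals, each marker by its brightest probe. Of the 16 member probes, 14 matched the RefSeq table of mouse genes by accession.

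Named genes were the members, the RNA components and Rpp25l, called genes of the lists with 4 further genes of lowest adjusted p (1 of them is not reported here), and, near called members, the called detected genes and the nearest gene on each side. A bound ("at least") used the lowest detected signal of each BTBR/R array. Alternatives were normexp background correction (offset 50), quantile, median, detected-probe and spike-in scaling, the authors' log2 values, filters on dim probes, a floor, limma with trend and robust estimation, the methods' t-test, a replicate block and leaving out each mouse. Reference sequence and exon positions in mm9 were not used here. The number of arrays limits the precision.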

Additional observations from a re-analysis of the deposited data

How the results depend on the processing

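The count of all called probes depended on the setting, with 12697 as reported, 563 with normexp background correction, 2200 with quantile normalization, 1557 with the filter for detection on all arrays of 1 strain or both, 631 with probes detected on all arrays and 789 with a floor at the highest detection limit (11792 to 12929 without 1 mouse). The split of 1284 lower and 11413 higher calls became 332 and 231 with normexp and 1656 and 544 with quantile normalization. The 2 called members, Pop4 and Rpp25, stayed called in all 20 settings. The 7 member probes at any fold became 4 with normexp, 4 with scaling by the median, 4 to 7 without 1 mouse (4 without B6 replicate 3) and 3 with a replicate block, where Pop4, Rpp25 and 1 Pop1 probe passed. The cause was not tested. Same-numbered arrays of the strains shared a slide row, so the replicate block was also a block on slide row. Deviations of same-numbered mice correlated between -0.07 and 0.16. Calls in the 3 lists fell from 6 to 2 with normexp, and calls near Rpp25 from 1 to 0, where Stra6 was no longer called. Directions turned only at probes near 0: Pop1 (0.028 with normexp), Pop7 (-0.010 with scaling by the median, -0.0046 to 0.043 without 1 mouse), Rpp14 (0.0025 with normexp, 0.11 with spike-in scaling, -0.076 to 0.066 without 1 mouse) and Rpp21 (0.0063 with normexp and 0.054 with spike-in scaling at one probe, -0.0022 with scaling by the median and -0.0043 to 0.053 without 1 mouse at the other). The lowest detected scaled signal was -5.28 to -4.98 on B6 arrays and -3.97 to -3.55 on BTBR/R arrays, which limits the Pop1 probe detected on 6 arrays.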

Other observations

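In 32 sets of 4 mice, 1 for each strain and member probe, no mouse stood apart from the other mice of its strain by Dixon's test at its 95% level.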
